A study of Arabidopsis thaliana with 18 samples.

Results

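The SMALL AUXIN UP RNA (SAUR) genes were followed as Arabidopsis thaliana seedlings raised in darkness met white light. Of 60 listed SAUR loci, 3 had a probe set that the array annotation assigned to that gene alone, 1 probe set each: AT2G18010 (SAUR10), AT3G53250 (SAUR57) and AT1G43040 (SAUR58). The other 57 loci had no such probe set and were not analysed here, and no probe set assigned to several genes held a listed locus. The annotation names no gene for 8730 probe sets, so some of the 57 loci may be measured there. The values below therefore describe these 3 transcripts and not the family. Of the 22746 probe sets on the array other than controls, 15922 passed a filter on low signal and were tested, among them those of SAUR10 and SAUR57. SAUR58 lay below the filter.

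All seedlings were wild type of the accession Col-0, 4 days old, grown on half-strength MS agar without light, and aerial parts were taken. They stayed dark or were lit with white light (70 to 80 micromoles per square metre and second), for 0.5 h in some groups and for 4 h in others. Each light condition was measured as steady-state RNA (total RNA) and as polysome RNA (transcripts recovered with several ribosomes from a sucrose gradient), which gives 6 groups with 3 arrays each, called biological replicates in the labels. No mutant, hormone or hormone inhibitor was part of the 6 groups, and a whole aerial part mixes hypocotyl, hook and cotyledon, so fewer cells of a type and less RNA per cell cannot be told apart.

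SAUR genes are named for messenger RNAs that rise within minutes of auxin treatment, and many of these messages are short-lived. The proteins are small. Well-studied members bind and inhibit D-clade PP2C phosphatases, which would otherwise remove the phosphate that keeps plasma membrane proton ATPases active; the pumps then acidify the cell wall, and the wall loosens as the cell elongates. Light slows elongation of the hypocotyl while the cotyledons open and expand, and SAUR genes are known to respond to light differently in these organs. SAUR10 is known to respond to auxin, brassinosteroid and light.

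Signals below are linear MAS5 intensities scaled to one level on every array, so each value is relative to the other transcripts of its array. Array medians lay between 153.9 and 205.7. Changes are on the log2 scale ± SE from limma, with p-values adjusted by Benjamini-Hochberg over all tested probe sets, and n = 3 arrays per group. Arrays with the same replicate number deviated together, so values from the fit with the replicate number as a block are given where they alter a call. Of the genes listed as root markers, PYK10 gave a strong signal of 17856.1 to 23970.9 in all 18 arrays. It did not pass the test between 4 h and darkness (log2 change in steady-state RNA 0.10, adjusted p = 0.587). The root hair gene EXPA7 was weak (3.1 to 50.4). These 2 genes go different ways, and whether PYK10 is limited to roots was not tested. A part of root tissue in the SAUR values was not tested. Of shoot markers, PORB, a protochlorophyllide oxidoreductase of dark-grown and greening shoots, fell at 4 h as SAUR10 did (-1.75 in steady-state and -2.28 in polysome RNA, adjusted p = 1.20e-06 and 3.30e-08), but did not pass at 0.5 h (-0.43 and -0.39). The green-tissue genes RCA (1.85 and 1.75) and LHCB4.1 (0.72 and 1.42) rose at 4 h and did not pass at 0.5 h. The part of shoot development in the SAUR values at 4 h was not tested.

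**Figure D1:**
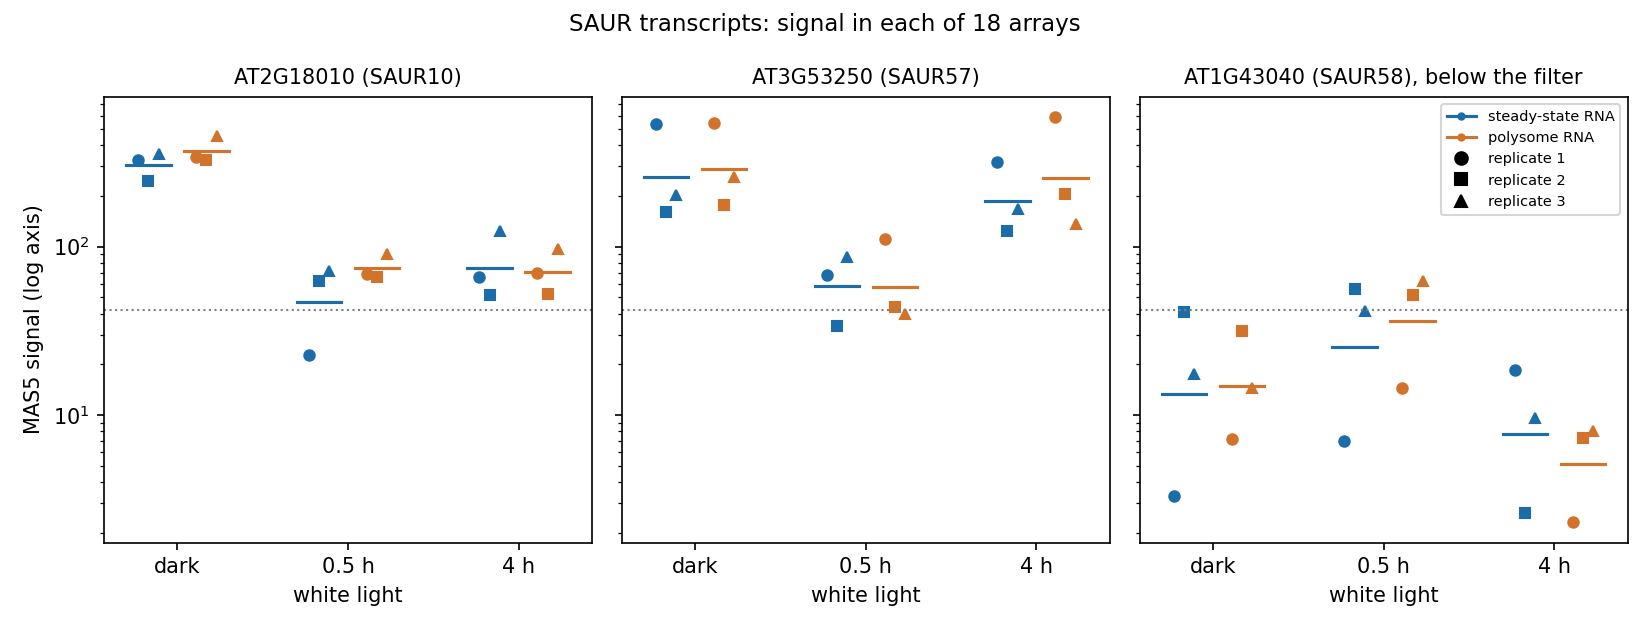
Signal of SAUR10, SAUR57 and SAUR58 in each of the 18 arrays (logarithmic vertical axis, linear MAS5 signal) against light condition, with 1 point per array and steady-state and polysome RNA in separate colours. Short bars mark the geometric mean of each group, whereas group means in the text are arithmetic. SAUR10 drops by 0.5 h and stays low at 4 h, whereas SAUR57 is low at 0.5 h and overlaps its dark range again at 4 h; SAUR58 does not exceed 62.6 in any array.

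SAUR10 was lower in light than in darkness at both times and in both kinds of RNA. In dark steady-state RNA its signals were 326.1, 245.9 and 352.8 (308 ± 55.6, SD), and after 0.5 h of light they were 22.7, 62.3 and 71.5 (52.2 ± 25.9). After 4 h they were 65.7, 51.3 and 123 (80.0 ± 37.9). Every light array lay below every dark array, while the 0.5 h and 4 h arrays overlapped. The change from darkness was -2.71 ± 0.41 at 0.5 h (adjusted p = 0.000714) and -2.03 ± 0.41 at 4 h (adjusted p = 0.000615).

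In polysome RNA the dark arrays were again the highest. The dark polysome signals of SAUR10 were 340.3, 327.3 and 452.2 (373 ± 68.7), against 68.7, 65.7 and 90.7 (75.0 ± 13.7) at 0.5 h and 69.7, 52.2 and 96.1 (72.7 ± 22.1) at 4 h. Light and dark arrays did not overlap here either. The change was -2.31 ± 0.41 at 0.5 h (adjusted p = 0.00322) and -2.39 ± 0.41 at 4 h (adjusted p = 0.000121). Between arrays of equal number the 0.5 h polysome change was -2.31, -2.32 and -2.32, a narrower span than the -3.84, -1.98 and -2.30 of steady-state RNA, in which 1 array of signal 22.7 made the widest step.

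At 0.5 h few transcripts of any kind passed the test. In steady-state RNA 1 of the 2 tested SAUR transcripts was called, SAUR10, beside 1.43% of all tested probe sets (0.685% lower), and its change ranked 4 from the lowest of 15922. In polysome RNA again 1 of 2 was called, beside 1.31% of all (0.678% lower), and the rank of SAUR10 was 11. SAUR57, not called in this fit, ranked 15 from the lowest in steady-state RNA and 9 in polysome RNA. At 4 h far more of the array had moved. There 1 of 2 was called lower in steady-state RNA, beside 17.1% of all probe sets called lower (34% in either direction), and in polysome RNA 1 of 2 beside 20.1% (35.7%). The SAUR10 change ranked 293 and 224 from the lowest at that time.

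**Figure D2:**
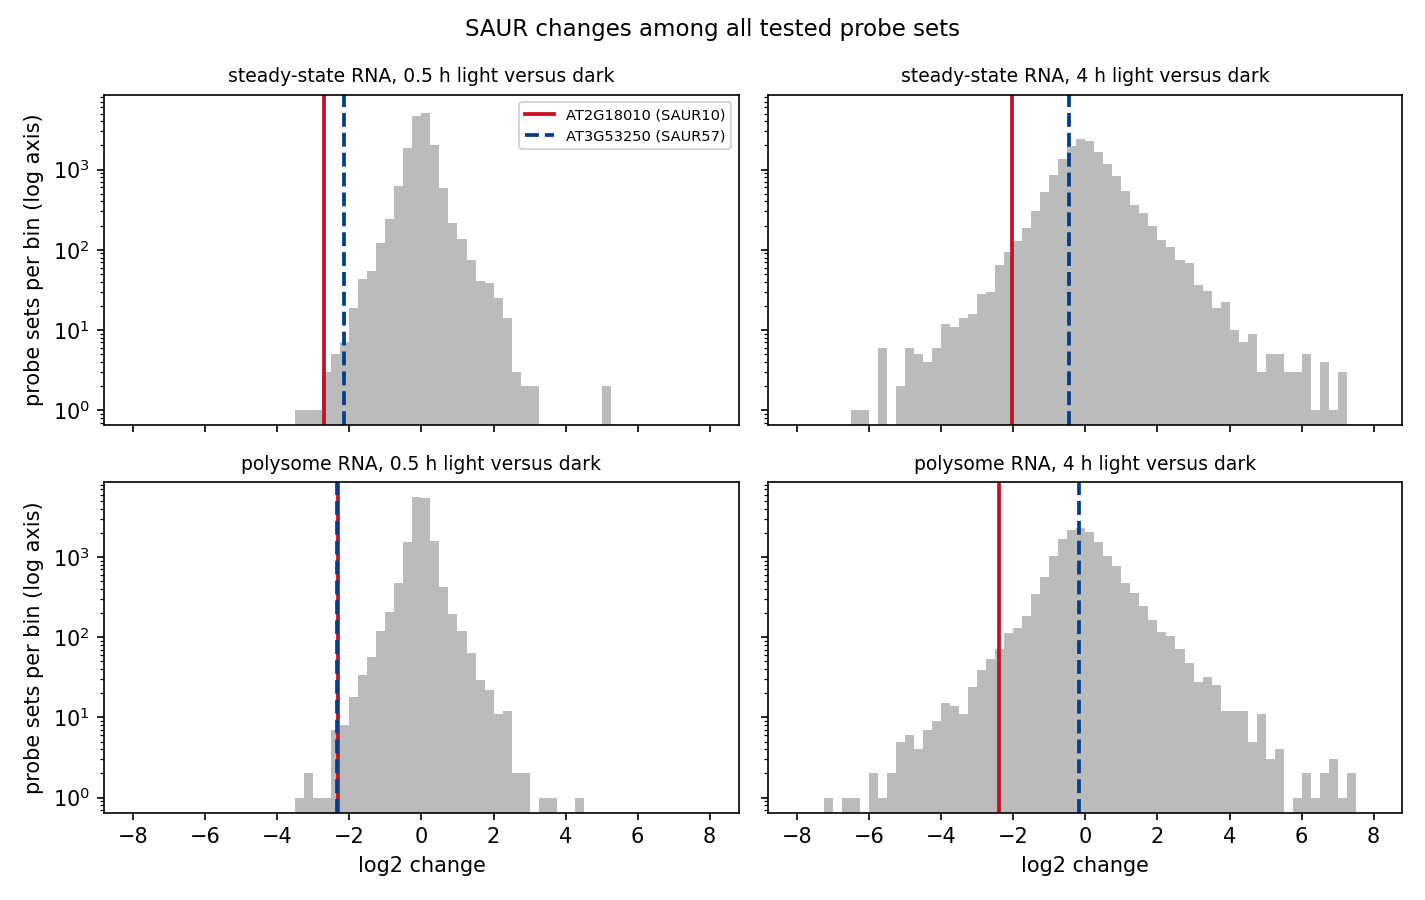
Histograms of log2 changes from darkness over all 15922 tested probe sets (logarithmic count axis) at 0.5 h and 4 h in both kinds of RNA, with vertical lines at SAUR10 and SAUR57. Both lines stand in the lower tail at 0.5 h, and at 4 h only that of SAUR10 does.

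From 0.5 h to 4 h the SAUR10 level did not pass the test in either kind of RNA. The difference was 0.68 in steady-state RNA (95% confidence interval -0.18 to 1.54, adjusted p = 0.230) and -0.076 in polysome RNA (-0.94 to 0.79, adjusted p = 0.912). From high to low the group means ran dark polysome, dark steady-state, 4 h steady-state, 0.5 h polysome, 4 h polysome and 0.5 h steady-state. Only the step from the dark groups to the light groups separated neighbours in this order without overlap of arrays. Replicate 3 held the highest array in 6 of 6 groups.

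SAUR57 was low at 0.5 h and higher again at 4 h. Its dark steady-state signals were 534.7, 160.5 and 201.1 (299 ± 205), its signals at 0.5 h were 67.6, 33.8 and 87.0 (62.8 ± 26.9), and those at 4 h were 316.4, 124.4 and 167.3 (203 ± 101). The 0.5 h arrays lay below all dark and all 4 h arrays, and the 4 h arrays overlapped the dark ones. In polysome RNA the dark signals were 540.8, 175.6 and 258.9 (325 ± 191), the 0.5 h signals 110.7, 43.8 and 39.7 (64.7 ± 39.9) and the 4 h signals 590.2, 205.0 and 136.8 (311 ± 244). The same pattern of overlap held. The spread within a group followed the replicate number: replicate 1 was the highest array in 5 of 6 groups.

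For the lower level of SAUR57 at 0.5 h the call turned on that replicate number. Without it, the change was -2.15 ± 0.58 in steady-state RNA (adjusted p = 0.0883) and -2.33 ± 0.58 in polysome RNA (adjusted p = 0.0528), and neither passed. Once the replicate number was blocked, these changes had an SE of 0.32 and passed, with adjusted p = 0.000218 and 8.14e-05. In that fit 2 of 2 tested SAUR transcripts were called lower at 0.5 h in each kind of RNA, beside 1.33% of all probe sets in steady-state and 1.15% in polysome RNA. Each of the 3 pairs fell, by log2 changes of -2.98, -2.25 and -1.21 in steady-state and -2.29, -2.00 and -2.71 in polysome RNA.

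The later step was upward. Between 0.5 h and 4 h SAUR57 rose by 1.68 ± 0.58 in steady-state RNA (adjusted p = 0.0299) and by 2.14 ± 0.58 in polysome RNA (adjusted p = 0.00721). SAUR57 was the 1 of 2 tested members called in each, beside 16.4% of all probe sets called higher in steady-state RNA and 14.6% in polysome RNA (33.9% and 33.4% in either direction). The steady-state call was lost when any 1 of 3 arrays was left out: the 4 h replicate 1 (adjusted p = 0.137) or 3 (0.0545) or the 0.5 h replicate 2 (0.145), and the polysome call without the 4 h replicate 1 (0.0585). With the block, adjusted p was 0.000204 in steady-state and 1.40e-05 in polysome RNA, and the pairs rose by 2.23, 1.88 and 0.94 and by 2.41, 2.23 and 1.78.

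At 4 h SAUR57 did not differ from darkness beyond its error. The change was -0.46 in steady-state RNA (95% confidence interval -1.68 to 0.75, adjusted p = 0.597) and -0.19 in polysome RNA (-1.40 to 1.02, adjusted p = 0.840). These intervals are wide. With the block they were -1.13 to 0.20 in steady-state and -0.86 to 0.48 in polysome RNA, and neither change passed. Each of the 3 steady-state pairs was lower at 4 h than in darkness (-0.76, -0.37 and -0.27). Of the polysome pairs 1 was lower (0.13, 0.22 and -0.92). A moderate difference at 4 h was not detectable with 3 arrays. From high to low the SAUR57 groups ran dark polysome, 4 h polysome, dark steady-state, 4 h steady-state, 0.5 h polysome and 0.5 h steady-state, and only the step from 4 h steady-state to 0.5 h polysome RNA separated neighbours without overlap.

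**Figure D3:**
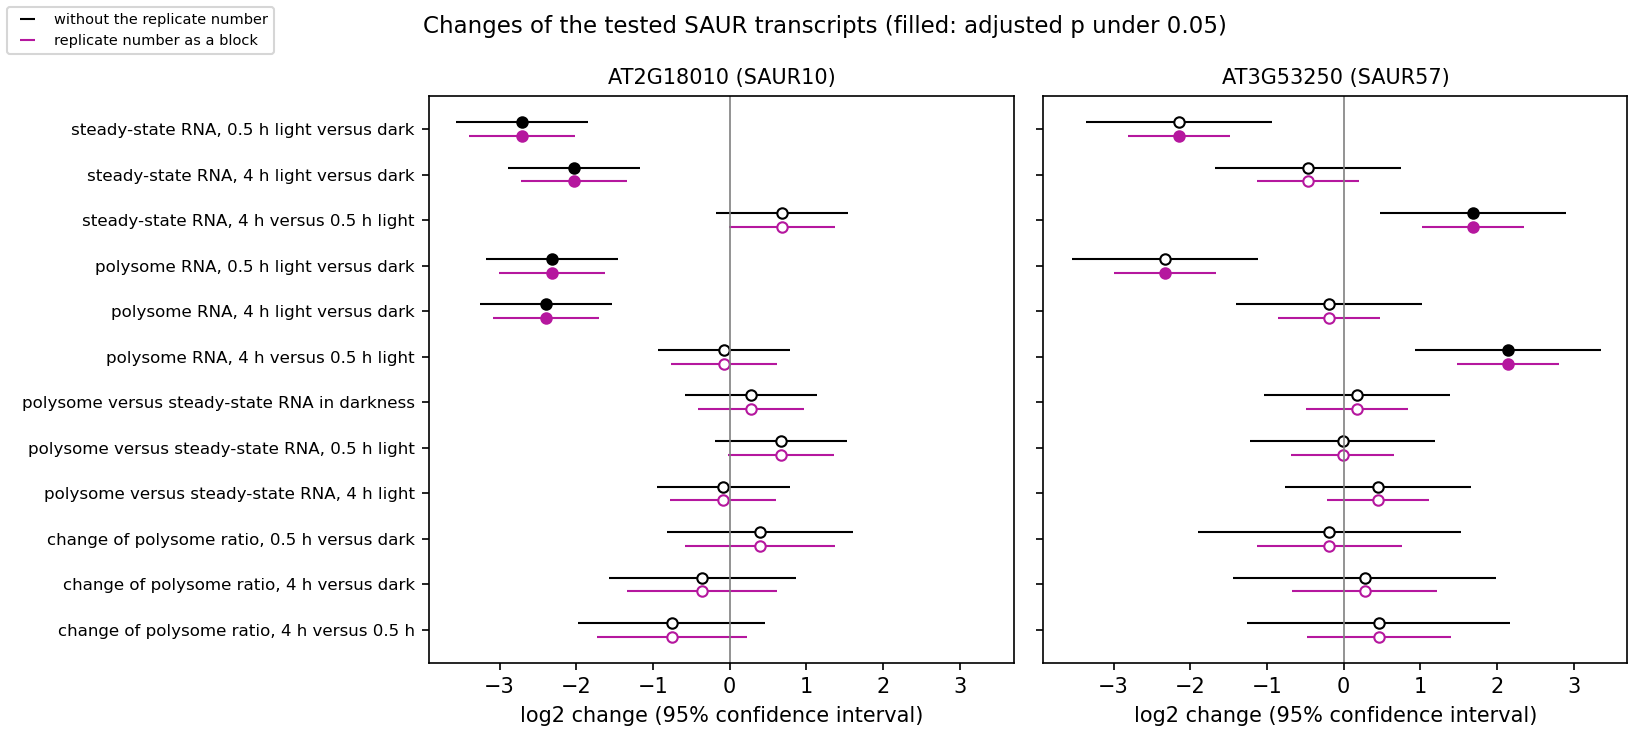
Log2 changes of SAUR10 and SAUR57 with 95% confidence intervals in the 12 comparisons, from the fit without the replicate number and from the fit with it as a block; filled points have an adjusted p under 0.05. SAUR10 passes in the 4 comparisons of light with darkness in both fits, SAUR57 passes from 0.5 h to 4 h in both fits and at 0.5 h against darkness with the block only, and no polysome ratio passes for either gene.

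The later steps of the 2 genes were also set against each other, a contrast chosen after the values were seen. From 0.5 h to 4 h the log2 change of SAUR57 exceeded that of SAUR10 by 1.00 in steady-state RNA (exact two-sided permutation p = 0.4) and by 2.22 in polysome RNA (exact p = 0.2), where 3 arrays against 3 allow no p below 0.1. The excess was positive in each of the 3 pairs, at 0.69, 2.16 and 0.16 in steady-state and 2.39, 2.56 and 1.70 in polysome RNA. From darkness to 0.5 h the genes' changes differed by 0.56 and -0.018 (exact p = 0.7 and 1). This test could not pass the 0.05 threshold at this size and does not use the pairing, so whether the courses of SAUR10 and SAUR57 after 0.5 h differ is not settled by it. Over the 18 arrays their log2 signals had a Pearson correlation of 0.505, a description, since arrays of a group share their light condition.

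SAUR58 was weak throughout. Its signals were 3.3, 41.0 and 17.4 in dark steady-state RNA, 7.0, 56.1 and 41.4 at 0.5 h and 18.4, 2.6 and 9.6 at 4 h. In polysome RNA they were 7.2, 31.6 and 14.5 in darkness, 14.5, 51.2 and 62.6 at 0.5 h and 2.3, 7.3 and 8.0 at 4 h. The geometric mean over all arrays, 13.9, lay under the 42.1 of the lowest tested probe set, and groups next to each other in level overlapped without exception. In both kinds of RNA the 0.5 h group had the highest mean and the 4 h group the lowest. In a fit with no filter, none of the 6 light comparisons of SAUR58 passed, the nearest being 4 h against 0.5 h in polysome RNA (-2.81 ± 1.10, adjusted p = 0.0774). With the block and no filter, a setting chosen after the data were seen, this comparison alone of the 6 passed (-2.81 ± 0.97, adjusted p = 0.0340). Its arrays did not overlap, and the pairs were -2.66, -2.81 and -2.97. In that fit 16.3% of 22746 probe sets were called lower. The same step in steady-state RNA did not pass there (-1.72 ± 0.97, adjusted p = 0.225). Its arrays overlapped, and its pairs were 1.39, -4.43 and -2.11. Signals this weak leave the course of SAUR58 open.

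The ratio of polysome to steady-state signal did not pass the test at any time for SAUR10 or SAUR57. Each array is scaled to one level, so this ratio is relative to other transcripts and is not the share of a transcript on polysomes. SAUR58 lay below the filter. For SAUR10 the log2 ratio of polysome to steady-state signal was 0.28 in darkness, 0.67 at 0.5 h and -0.082 at 4 h (adjusted p = 0.775, 0.354 and 0.935). For SAUR57 it was 0.17, -0.015 and 0.44 (adjusted p = 0.913, 0.992 and 0.703). Of all tested probe sets 8.25%, 8.32% and 13.4% were called in these 3 comparisons. The change of the ratio with light did not pass either: for SAUR10 it was 0.40 ± 0.58 at 0.5 h and -0.36 at 4 h against darkness, and for SAUR57 -0.19 ± 0.82 and 0.27. Few transcripts passed there at all, 0% of all tested probe sets at 0.5 h (257 at an unadjusted p under 0.05, and 0% with the block), 0.364% at 4 h and 0.0188% between 4 h and 0.5 h. Errors of this size would hide a moderate change of the ratio.

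Of genes that act in the same growth pathway, few had a probe set that the annotation assigned to that gene alone: 0 of 6 auxin receptors, 0 of 4 auxin response factors of elongation, 0 of 11 plasma membrane proton ATPases, 4 of 24 Aux/IAA repressors, 4 of 9 D-clade PP2C phosphatases and 1 of 9 PIF, HY5 and brassinosteroid factors. The rest may be measured under probe sets for which the annotation names no gene. Aux/IAA proteins hold auxin response factors in check and are themselves often auxin-induced. Of the 4 measured, 1 fell at 0.5 h in each kind of RNA, where 0.685% of all tested probe sets were called lower in steady-state and 0.678% in polysome RNA. At 4 h 2 fell, beside 17.1% and 20.1% of all, and none rose at either time. The median change of the 4 in steady-state RNA was -0.0072 at 0.5 h and -1.46 at 4 h, beside 0.015 and -0.0067 over all tested probe sets. In polysome RNA it was -0.31 and -1.50, beside -0.0015 and -0.094. The 4 h medians fall between the 2 called genes and the 2 others, IAA18 and IAA30, whose steady-state changes were -0.15 and -0.072.

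IAA29, an auxin-induced Aux/IAA gene, had the early drop of SAUR10: its mean signal was 915 ± 243 (SD) in dark steady-state RNA, 145 ± 44.6 at 0.5 h and 137 ± 45.6 at 4 h. The change was -2.66 ± 0.27 at 0.5 h (adjusted p = 1.35e-05) and -2.76 ± 0.27 at 4 h, and -2.67 and -2.56 in polysome RNA. IAA20 was called at 4 h and not at 0.5 h. Its 4 h signals were weak, with means of 59.5 ± 28.4 (SD) in steady-state and 46.4 ± 59.0 in polysome RNA. The polysome median of 13.8 lay under the 42.1 (geometric mean) of the lowest tested probe set. Dark and 4 h arrays did not overlap, but the polysome pairs were -5.18, -2.38 and -5.45, so the size of the drop is uncertain. The 4 h change was -3.97 ± 0.59 in steady-state RNA (adjusted p = 2.12e-05) and -4.34 ± 0.59 in polysome RNA. At 0.5 h these changes were -0.049 and -0.20. IAA18 and IAA30 passed in none of these 4 comparisons.

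Of the phosphatases that SAUR proteins inhibit, none of the 4 measured D-clade genes passed at 0.5 h. AT3G17090 was the 1 that fell at 4 h, with a change of -1.09 ± 0.16 in steady-state RNA (adjusted p = 1.73e-05) and -0.77 in polysome RNA (adjusted p = 0.000708). A count of 1 of 4 is close to the 17.1% and 20.1% of all probe sets called lower. With the block AT3G51370 was called lower as well in steady-state RNA at 4 h (-0.34, adjusted p = 0.0489, against 0.132 without), where 21.7% of all were. The log2 ratio of polysome to steady-state signal was called above 0 in darkness for AT3G12620 (0.52, adjusted p = 0.0394) and AT3G55050 (0.60, adjusted p = 0.0246). At 4 h it was called for AT3G12620 (0.54, adjusted p = 0.0243) and AT3G51370 (0.54, adjusted p = 0.0411). All probe sets called higher in this ratio were 3.7% in darkness and 5.55% at 4 h. At 0.5 h none of the 4 was called, beside 8.32% of all in either direction. With the block all 4 were called at 4 h, beside 9.64% of all called higher. HYH, a bZIP factor that acts with HY5 to promote light responses, rose at 4 h by 4.07 ± 0.32 in steady-state and 4.18 in polysome RNA (adjusted p = 5.69e-09 and 3.98e-09), and its 0.82 and 0.50 at 0.5 h did not pass.

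**Figure D4:**
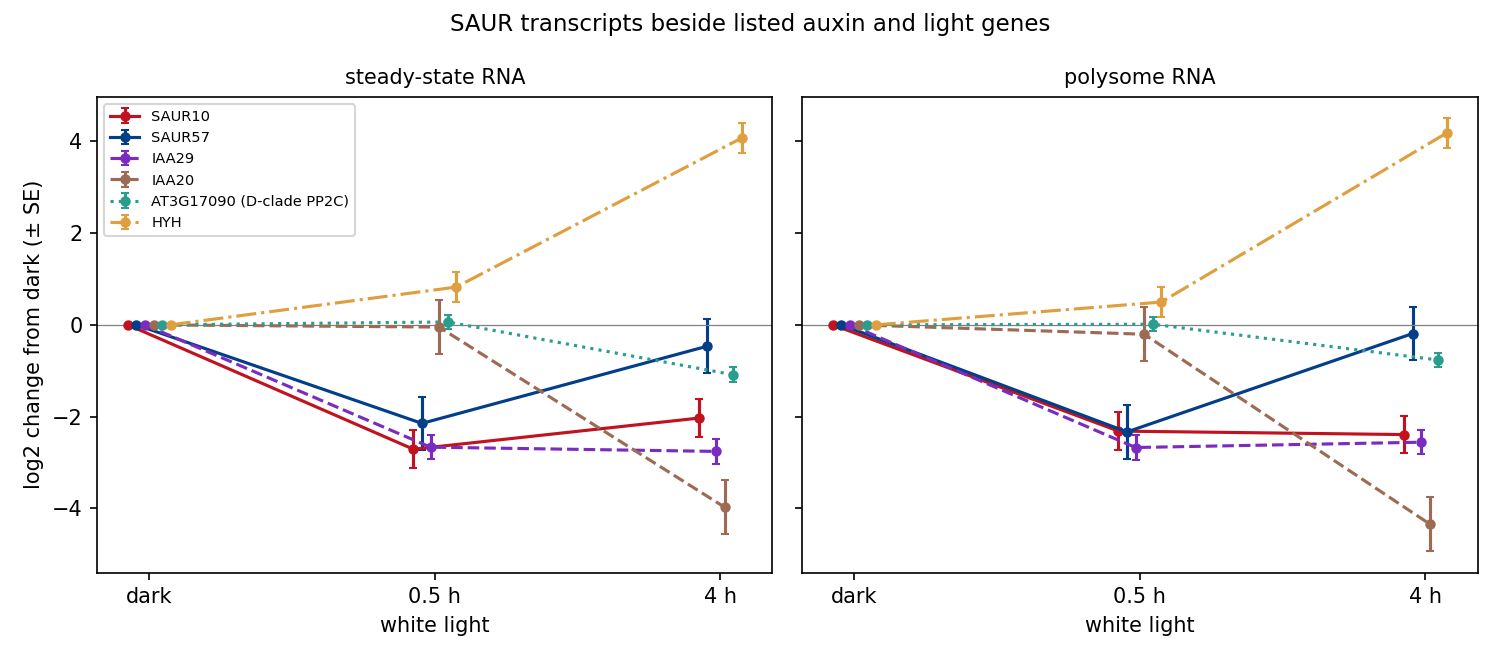
Log2 change from darkness (± SE) at 0.5 h and 4 h in steady-state RNA (left) and polysome RNA (right) for SAUR10, SAUR57 and the named Aux/IAA, PP2C and HYH genes. IAA29 runs beside SAUR10, and SAUR57 returns towards 0. IAA20 and HYH pass the test against darkness at 4 h only, though HYH stands at 0.82 ± 0.32 at 0.5 h in steady-state RNA.

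The transcripts whose log2 signal over the 18 arrays was most like each SAUR gene were listed by Pearson correlation among 4169 single-gene probe sets with an SD of 0.5 or more, a measure chosen after the data were seen. These correlations describe arrays that share light conditions and replicate numbers. For SAUR10 the closest were IAA29 (0.937), AT1G27210 (0.935), BRH1 (0.925), a RING finger gene known to be repressed by brassinosteroid, and WRKY22 (0.872). Their changes in steady-state RNA at 0.5 h were -2.66, -1.55, -1.60 and -1.41. For SAUR57 the closest was AT5G01790 (0.806), followed by AT5G08350 (0.744) and AT3G22540 (0.708). AT5G01790 changed by -1.56 at 0.5 h and -0.58 at 4 h in steady-state RNA, and by -1.23 and -0.79 in polysome RNA.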

How the data were processed

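The deposited values are linear signal intensities made by the authors with MAS5, per the submitters' processing notes; the sources used here give neither its version nor its settings. It covers 22810 probe sets, with a 2% trimmed mean between 500.042 and 500.05 on every array. Detection calls were not used. Names came from the platform annotation, which can be old, updated through a RefSeq gene table (assembly TAIR10.1); 13513 probe sets list 1 gene, 503 several and 8730 none. All 60 listed loci are in that table.

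After removal of 64 control probe sets, the 915 deposited signals below 1 were set to 1 before log2 values were formed. Probe sets at or above the 30th percentile of mean log2 signal were tested (15922) with limma 3.58.1 in R 4.3.3: 6 group means, an intensity trend and Benjamini-Hochberg adjusted p under 0.05 over all of them, in 12 comparisons. The scripts were tested on simulated data. Depth has no equivalent on arrays, and their number limits precision. The replicates' separate origin is given only by the label biological.

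Replicate numbers in the labels pair the samples: deviations from group means correlated at 0.108 to 0.426 for equal numbers over 9 pairs of groups and at most 0.0359 for different numbers. The sources used here do not say what the numbers stand for. Blocking on the number is an alternative to the reported fit.

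Every listed SAUR locus with a single-gene probe set is named, with full values for those called with a change of 2-fold or more and no overlap; those of SAUR58 are given because it is 1 of 3. Up to 3 called genes per related list are named by adjusted p, and the remaining members of the short lists were named after their values were seen. The members and lists were chosen with earlier results of these data known. Marker lists found 2 of 6 root genes, 1 of 3 dark aerial, 2 of 4 green aerial and 3 of 4 stomatal genes. Promoter motifs, protein identity and tandem runs were not analysed here.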

Additional observations from a re-analysis of the deposited data

How the results depend on the processing

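The lower level of SAUR10 in light kept its direction and call at 0.5 h and 4 h, in both kinds of RNA, under the alternatives that gave a value: each array left out (steady-state change at 0.5 h -3.02 to -2.19), the compared arrays alone, quantile normalization, a common median, no intensity trend, no filter, the replicate block, and 32 added to every signal. With 32 added, that change was -2.05. Filtering at the 50th percentile, which keeps 11373 probe sets, left no SAUR transcript, and choosing another probe set per gene was not run, since each has 1.

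Counts of called SAUR transcripts moved in 24 recomputed counts and stayed in 186. The replicate block raised the count at 0.5 h from 1 to 2 in both kinds of RNA (SAUR57), as it did without each replicate number, with 32 added, with quantile normalization and with no filter; it changed no other call of SAUR10 or SAUR57 in the 12 comparisons. With the block but without replicate 2 the count from 0.5 h to 4 h in steady-state RNA was 2 (SAUR10, 1.16, adjusted p = 0.0434), and with the block and no filter that in polysome RNA was 2 (SAUR58). The combined settings were chosen after the data were seen. The steady-state count from 0.5 h to 4 h fell to 0 with a common median (SAUR57 adjusted p = 0.0505) and with no intensity trend (0.0545). The polysome count at 0.5 h was 2 with the compared arrays alone (SAUR57 adjusted p = 0.0464). Over single arrays left out, counts ranged from 0 to 1 for 0.5 h to 4 h in both kinds of RNA and from 1 to 2 for polysome RNA at 0.5 h, there without the 0.5 h polysome replicate 1 (adjusted p = 0.0309); the highest adjusted p of SAUR57 in that comparison was 0.358. The cause was not tested.

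The reversals were among values that had not passed. With 1 array left out at a time, SAUR57 ranged from -0.84 to 0.061 for steady-state RNA at 4 h and -0.80 to 0.26 for polysome RNA at 4 h; its polysome ratio ranged from -0.28 to 0.69 in darkness, -0.48 to 0.27 at 0.5 h and -0.16 to 0.89 at 4 h, and the ratio change from -0.71 to 0.26, -0.33 to 0.72 and, between 4 h and 0.5 h, -0.15 to 0.93. SAUR10 ranged from -0.30 to 0.14 for polysome RNA from 0.5 h to 4 h, -0.35 to 0.28 for the ratio at 4 h, and -0.12 to 0.70 and -0.63 to 0.0018 for the ratio change at 0.5 h and 4 h. The SAUR57 ratio at 0.5 h was 0.0097 with quantile normalization and 0.024 with a common median, and the SAUR10 ratio at 4 h was 0.038 and 0.053. With the block, SAUR10 from 0.5 h to 4 h in polysome RNA was 0.052 without replicate 2, and SAUR57 at 4 h in polysome RNA was 0.17 without replicate 3.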

Other observations

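The course of SAUR57, low at 0.5 h, higher again at 4 h and then not called against darkness, was set beside other probe sets. These were all that the fit with the replicate block called lower at 0.5 h in steady-state RNA. Of these 212, in polysome RNA 38 (17.9%) were higher at 4 h than at 0.5 h, and 22 (10.4%) of the 212 were also not called against darkness at 4 h, as SAUR57 was. The course of SAUR10, lower at 4 h than in darkness with no called step after 0.5 h, was shared by 60 (28.3%). Among all 15922 tested probe sets these classes held 18.3%, 2.34% and 4.35%. A further 100 of the 212 (47.2%) were lower again at 4 h than at 0.5 h, as were 3905 (24.5%) of all. These shares are counts of calls and have no test, and steady-state and polysome arrays are linked by the replicate number. The 212 were chosen for a lower level at 0.5 h, and most of all tested probe sets were not lower then. A larger share of the SAUR57 and SAUR10 courses among the 212 is therefore partly fixed by that choice.

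SPCH, which starts the stomatal lineage, gave signals of 135 to 230.6 at 4 h in steady-state RNA and 83.2 to 194.9 in polysome RNA. In darkness and at 0.5 h its group means were 23.0 to 39.9, under the 42.1 (geometric mean) of the lowest tested probe set. It passed the filter only through its 4 h arrays, so its test at 4 h carries no weight. The log2 changes from darkness, 3.17 and 2.35, rest on weak dark signals. Of the other stomatal genes found, FMA did not pass the test at 4 h against darkness in steady-state RNA (-0.070, adjusted p = 0.935). MUTE, at 2.4 to 75.2 over the arrays, was below the filter. Whether cell composition moved with the SAUR values was not tested.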
